A study of Arabidopsis thaliana with 3 samples.

Results

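The Arabidopsis genes AT1G13880, AT2G03470, AT1G26580, AT2G46040 and AT4G11400 encode proteins with an ELM2 domain, and some of their UBP5-GFP peaks were the strongest of the whole genome. They are 5 of the 27444 protein-coding genes on chromosomes 1 to 5, and they are all 5 of the genes that the RefSeq annotation of TAIR10.1 describes with the word ELM2. Every peak that overlapped the gene body or the 2 kb on either side was collected in each replicate. The genes were chosen by their annotation and by the fold enrichment of their peaks, so fold, peak width and peak rank are given below as a description, without a test. The name given to the group held for 3 genes only: AT2G03470, AT1G13880 and AT1G26580 had the peaks ranked 1, 2 and 3 by fold in both replicates, whereas AT2G46040 and AT4G11400 lay in the middle or lower range of all peaks.

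UBP5 is a ubiquitin-specific protease that the study investigated as a histone H2A deubiquitinase, an enzyme that takes a single ubiquitin off histone H2A. Chromatin immunoprecipitation and sequencing (ChIP-seq) was done with an anti-GFP antibody on 12-day-old Col-0 seedlings of a UBP5pro::gUBP5-eGFP;ubp5 line, in which the ubp5 mutant carries a genomic UBP5 fused to eGFP under the UBP5 promoter, after crosslinking of isolated nuclei with EGS and formaldehyde. There were 2 immunoprecipitated replicates and 1 input library of sonicated chromatin, and the same input served both replicates. Immunoprecipitates from plants without GFP were not analysed here, so signal that the antibody or open chromatin would give without UBP5 cannot be told apart from UBP5 occupancy. Whole seedlings were used, so a peak in a few cell types and a weaker peak in all cells cannot be told apart either.

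The ELM2 domain was first described in the animal proteins EGL-27 and MTA1. In animal corepressors such as MTA1 and CoREST it lies beside a SANT domain, and together these bind class I histone deacetylases, which remove acetyl groups from histones. In AT2G46040 (ARID1) and AT4G11400 the ELM2 domain is annotated together with an ARID/BRIGHT domain, an AT-rich DNA-binding domain, and AT4G11400 also has a myb-like domain. The annotation of AT1G13880, AT2G03470 and AT1G26580 names the ELM2 domain alone.

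The peak lists held 10266 peaks in replicate 1 and 10898 in replicate 2 on the nuclear chromosomes, with a median fold of 2.31 and 1.92 and a median width of 436 and 473 bp. Overlapping parts of peaks of both replicates, called common intervals here, numbered 8889. Fold is the height of the fragment pileup at the summit over the height expected from the input, with 1 added to each. The expected height is the larger of a genome-wide background level and local input levels. The peak lists themselves hold no read counts, but the background level could be solved from the deposited p-values and came to 44.0 scaled fragments in replicate 1 and 122 in replicate 2. It applied to 87.5% of the peaks of replicate 1, 82.8% of those of replicate 2 and every peak over the 5 ELM2 genes in both replicates, so local input above background entered none of their folds.

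All 5 ELM2 genes had a common interval in the gene body or within 2 kb, as had 49.4% of the 27444 protein-coding genes. All 5 had it within the gene body, as had 29.0% of the protein-coding genes. AT1G13880, AT2G03470 and AT1G26580 also had a fold of at least 3 in both replicates within the body, which 3.00% of the protein-coding genes had. Each gene had a single peak in its body in each replicate, and over the 7962 genes with a common interval in the body the strongest one had a median fold of 2.49 in replicate 1 and 1.99 in replicate 2.

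AT2G03470 lies on the minus strand at chr2:1045446-1047744 and encodes a protein of 450 amino acids from 3 exons. Its peak had a fold of 18.2 in replicate 1 and 15.3 in replicate 2 (16.7 ± 2.01, SD, n = 2) and ranked 1 in both. It spanned chr2:1046776-1047766 (991 bp) in replicate 1 and chr2:1046786-1047795 (1010 bp) in replicate 2. The summits lay at positions 1047350 and 1047352, 2 bp apart, 394 and 392 bp downstream of the transcription start site (TSS). Both annotated transcripts have an intron of 438 bp in the 5′ untranslated leader, and both summits lay inside it, 220 and 222 bp before the start codon. The estimated summit pileup was 816 scaled fragments against the background of 44.0 in replicate 1, and 1885 against 122 in replicate 2.

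AT1G13880 lies on the plus strand at chr1:4748831-4751234. The fold was 17.8 in replicate 1 and 14.3 in replicate 2 (16.0 ± 2.44, SD, n = 2), second to AT2G03470 in both replicates. Its peak was wider, with 1941 bp at chr1:4748104-4750044 in replicate 1 and 2082 bp at chr1:4748099-4750180 in replicate 2. The peak extended across the TSS and the 164 bp that separate AT1G13880 from the divergent gene DRL1 (AT1G13870, DEFORMED ROOTS AND LEAVES 1, a KTI12-like chromatin-associated protein), and covered 563 and 568 bp of the 5′ end of DRL1. Only 1 summit was given for the peak in each replicate, at positions 4749302 and 4749289, 471 and 458 bp downstream of the AT1G13880 TSS. Both summits lay in intron 1 of all 3 annotated transcripts. In 2 of these transcripts the intron is 545 bp long and belongs to the 5′ leader, so that the summits were 301 and 314 bp before the start codon. In the third transcript the intron is 390 bp long and begins 19 coding bases after an upstream start codon, so that the summits were 119 and 106 bp past it.

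AT1G26580 lies on the plus strand at chr1:9184567-9187578. The fold was 12.0 in replicate 1 and 10.4 in replicate 2 (11.2 ± 1.15, SD, n = 2), rank 3 in both replicates, and both values were below every value of AT2G03470 and AT1G13880. The peak was as wide as that of AT2G03470, with 1000 bp at chr1:9184583-9185582 in replicate 1 and 945 bp at chr1:9184620-9185564 in replicate 2. The summits at 9184996 and 9185002 lay 429 and 435 bp downstream of the TSS, close to the distances in AT1G13880 and AT2G03470. The annotated structure at this place was different, since both summits fell in exon 1 of all 3 transcripts. This exon is 5′ leader at the summits, 624 and 618 bp before the start codon of the longest coding sequence, and in 2 of the transcripts it is followed by a leader intron of 303 bp that begins 283 bp beyond the summit of replicate 1.

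**Figure D1:**
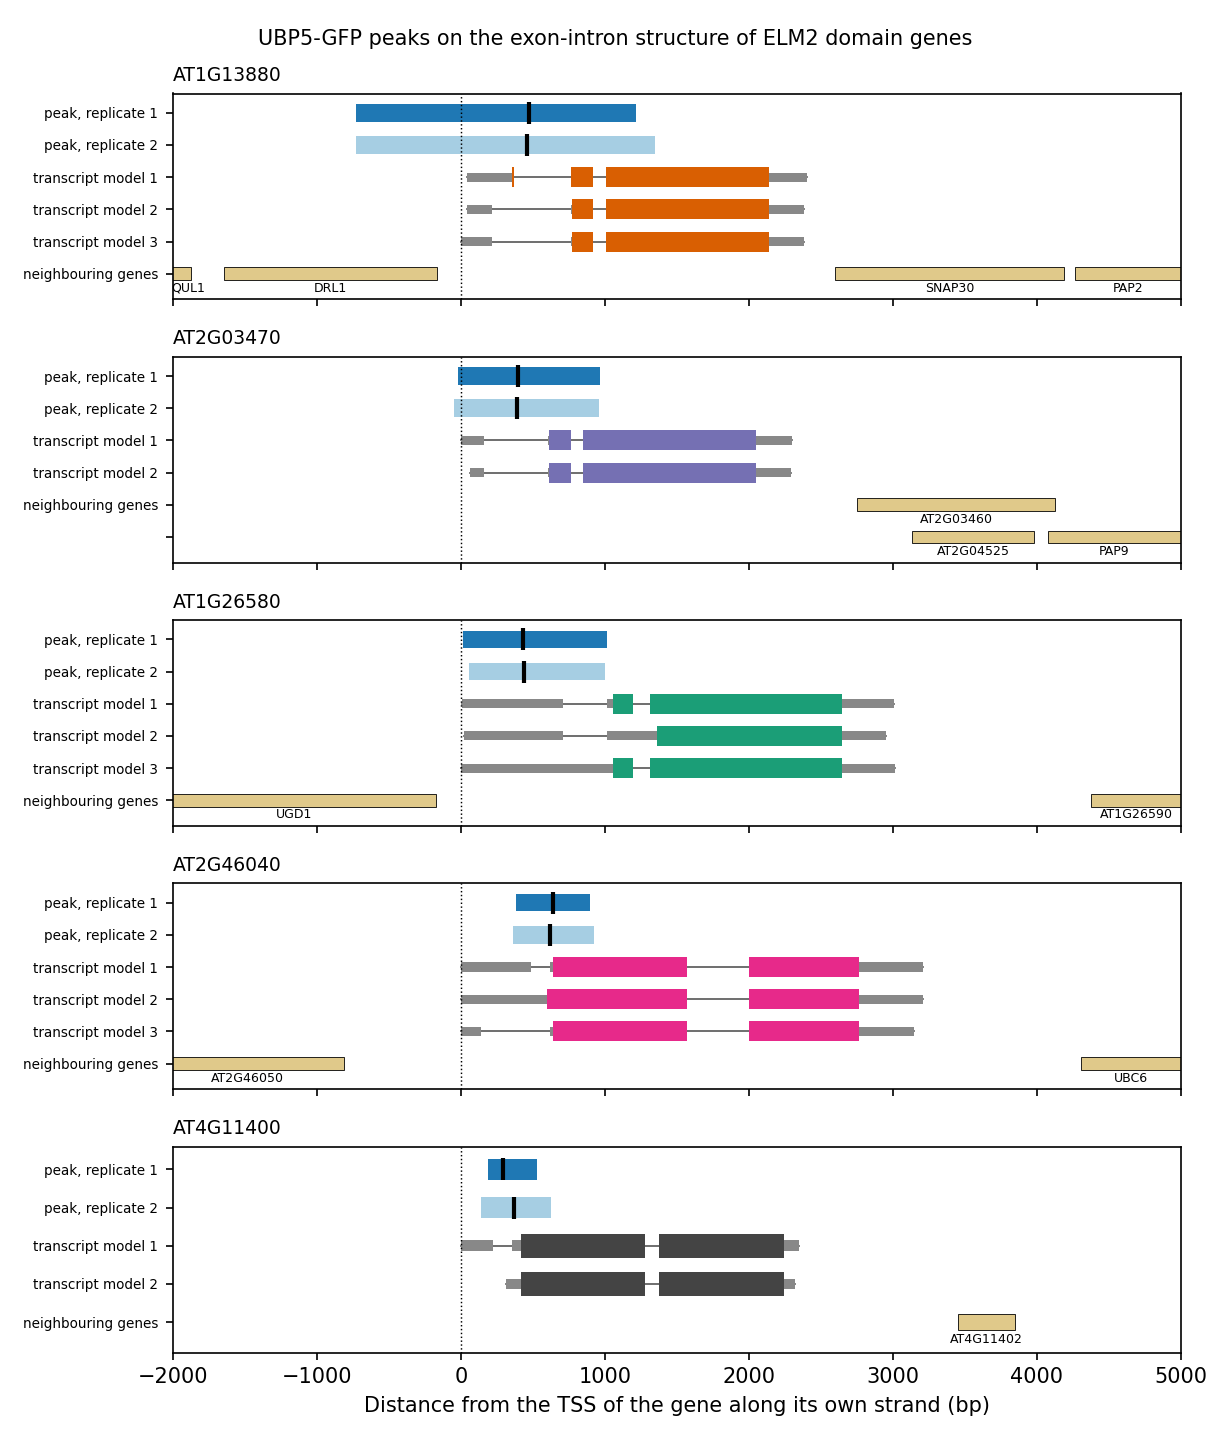
Peaks and transcript models of the 5 ELM2 genes, drawn by distance from the TSS in bp along each gene's strand. Blue bars are the peaks of replicate 1 (dark) and replicate 2 (light) with the summit as a black tick; grey boxes are untranslated exons, coloured boxes coding exons, lines introns, and tan boxes annotated neighbouring genes. The summits of AT1G13880, AT2G03470 and AT1G26580 lay 392 to 471 bp downstream of the TSS, upstream of the main coding exons, and only the AT1G13880 peak reached into a neighbouring gene.

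The summits of these 3 genes, 392 to 471 bp from the TSS, were set beside those of all 7962 genes with a common interval in the body, whose strongest interval had its summit at a median of 329 bp in replicate 1 (quartiles 251 and 444 bp) and 330 bp in replicate 2 (quartiles 256 and 432 bp). AT2G03470 was within the quartiles of both replicates and AT1G13880 beyond the upper quartile in both. AT1G26580 was within them in replicate 1 and 3 bp beyond them in replicate 2. The peaks were wide, since 97.9% to 99.8% of the shared peaks of replicate 1, and 93.6% to 98.3% of those of replicate 2, were narrower than those of these 3 genes, and the strongest interval of a gene spanned a median of 469 bp in replicate 1, with 479 bp in replicate 2.

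**Figure D2:**
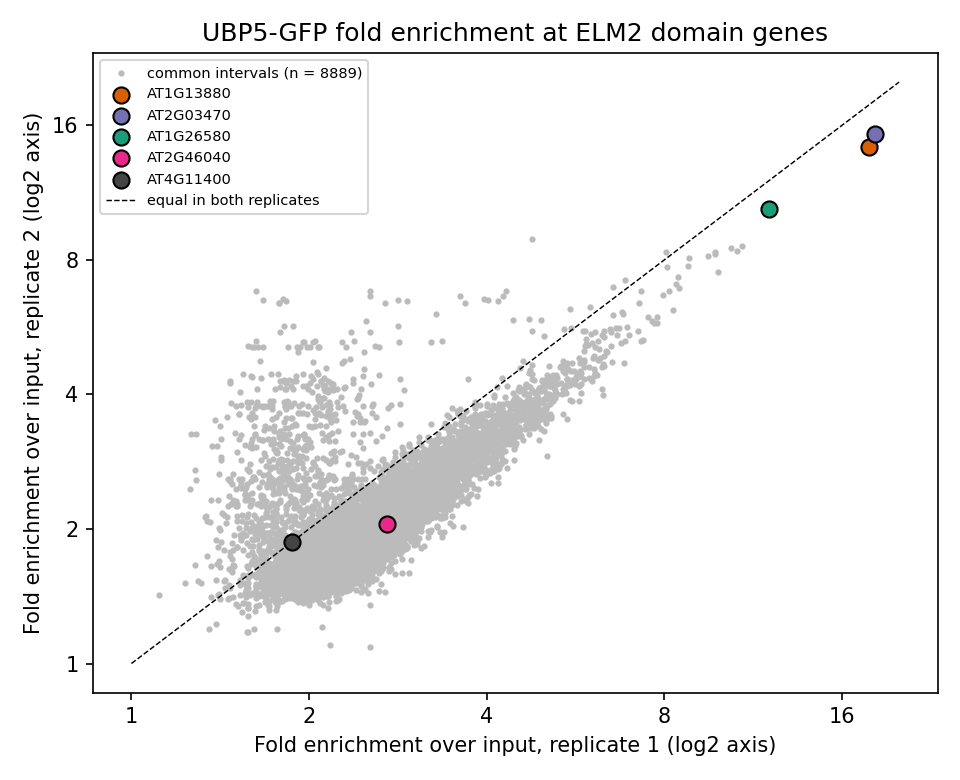
Fold enrichment over input in replicate 1 (x axis) and replicate 2 (y axis), both on log2 axes, for the 8889 common intervals (grey points) and the 5 ELM2 genes (coloured points). AT2G03470, AT1G13880 and AT1G26580 are the 3 points at the top right, whereas AT2G46040 and AT4G11400 lie inside the cloud. The broken line marks equal fold in both replicates.

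The DNA under the summits of AT1G13880 and AT2G03470 is shown because both stretches are intronic and yet alike. Each runs from 50 bp before to 130 bp after the summit of replicate 1 along the gene's strand, 5′ to 3′, and was read from the RefSeq sequence of TAIR10.1. Capitals mark the words of at least 8 letters that the 401-bp windows centred on the summits of AT1G13880, AT2G03470 and AT1G26580 all contained, and the 8-letter form CAGATCTG of the 9-letter word CAGATCTGT.
AT1G13880 intron, chr1:4749252-4749432, plus strand: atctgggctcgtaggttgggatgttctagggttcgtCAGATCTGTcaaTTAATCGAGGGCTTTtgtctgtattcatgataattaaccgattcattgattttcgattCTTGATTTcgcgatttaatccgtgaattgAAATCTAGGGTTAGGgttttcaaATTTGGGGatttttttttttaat
AT2G03470 intron, chr2:1047220-1047400, minus strand: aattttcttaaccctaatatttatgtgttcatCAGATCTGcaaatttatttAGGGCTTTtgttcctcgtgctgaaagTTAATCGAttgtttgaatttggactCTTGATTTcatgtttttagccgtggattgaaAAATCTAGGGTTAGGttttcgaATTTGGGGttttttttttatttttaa

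Most of the marked words followed each other in the same order and at nearly the same spacing in these 2 introns. AGGGCTTT began 5 bp after the summit of replicate 1 in AT1G13880 and 1 bp after it in AT2G03470. CTTGATTT began 56 and 52 bp after the summit, the 15-letter word AAATCTAGGGTTAGG 85 and 83 bp after it, and ATTTGGGG 108 and 105 bp after it. CAGATCTG, which reads the same on both strands, began 14 and 18 bp before the summit. Further copies of CAGATCTG began 166 and 145 bp before the summit in AT1G13880 and 121 bp before it in AT2G03470. The full 9-letter word CAGATCTGT was placed differently, 14 bp before the summit in AT1G13880 and 121 bp before it in AT2G03470, where the copy near the summit ends in another letter. TTAATCGA also differed, 2 bp before the summit in AT1G13880 and 27 bp after it in AT2G03470.

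In AT1G26580 the same words stood in the 5′ leader exon. The next 3 stretches of 30 bases show where, with capitals as above and, in the third stretch, also for TCTAGGGTTAGG, the last 12 letters of the 15-letter word.
AT1G26580 leader upstream of the summit, chr1:9184816-9184845, plus strand: aaaaaaaAAATCTAGGGTTAGGgtacttga
AT1G26580 leader at the summit, chr1:9184993-9185022, plus strand: tAGGGCTTTcCAGATCTGTaaattgttaga
AT1G26580 leader downstream of the summit, chr1:9185104-9185133, plus strand: TCTAGGGTTAGGgtttcttctgATTTGGGG

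The order was kept in part. CAGATCTG began 7 bp, CTTGATTT 77 bp, TCTAGGGTTAGG 108 bp and ATTTGGGG 130 bp after the AT1G26580 summit, each 20 to 22 bp further on than in AT1G13880. The full 15-letter word lay elsewhere, 173 bp before the summit, and AGGGCTTT lay 2 bp before it.

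The windows were also aligned with each other. Those of AT1G13880 and AT2G03470 shared a local alignment of 219 columns with 73.1% identical letters, from 83 bp before to 132 bp after the AT1G13880 summit. Those of AT1G13880 and AT1G26580 shared 162 columns with 71.6% identical letters. AT2G03470 and AT1G26580 shared a shorter stretch of 46 columns, around the TCTAGGGTTAGG site, with 80.4% identical letters. Set against 8886 other shared-summit windows of the same length, the window of AT1G13880 scored 143 with AT2G03470, which no other window exceeded, and 77 with AT1G26580, which 1 other window exceeded, AT2G03470 itself. The score of AT2G03470 with AT1G26580 was 44, which 5 windows exceeded, and the median score was 23. Non-coding stretches of these genes away from the summits were not aligned. Whether the likeness is particular to the summits was therefore not tested. Through these alignments the replicate 1 summit of AT2G03470 fell on the base 4 bp downstream of the AT1G13880 summit, and that of AT1G26580 on the base 21 bp upstream of it. The replicate 2 summits of AT2G03470 and AT1G26580 fell on the bases 2 bp downstream and 17 bp upstream of the AT1G13880 summit of replicate 1, and the replicate 2 summit of AT1G13880 itself lay 13 bp upstream of it. Which of the other genes was closer to AT1G13880 in summit placement therefore changed with the replicate.

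**Figure D3:**
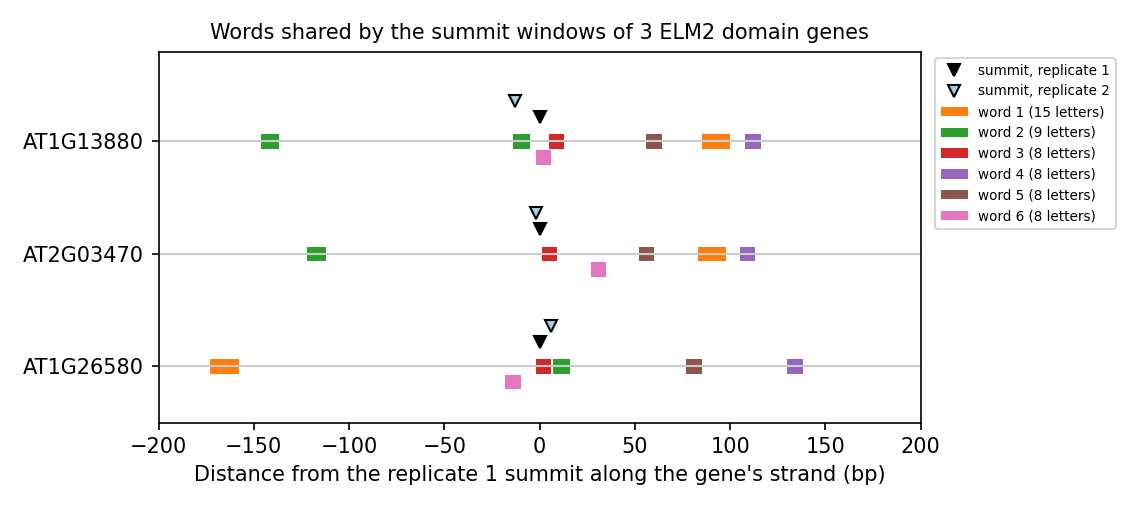
Places of the 6 words of at least 8 letters shared by the summit windows of AT1G13880, AT2G03470 and AT1G26580, by distance in bp from the replicate 1 summit along each gene's strand. Each coloured box is 1 word drawn to its length, and triangles are the summits of replicate 1 (black) and replicate 2 (blue). Words 3, 5 and 4 followed in the same order in all 3 genes, whereas the 15-letter word 1 lay 85 and 83 bp downstream in AT1G13880 and AT2G03470 and 173 bp upstream in AT1G26580.

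The 15-letter word AAATCTAGGGTTAGG occurred at 4 places on the 5 chromosomes, both strands searched. These were the 3 ELM2 genes, which were where it was found, and AGL83 (AT5G49490, AGAMOUS-like 83), which had no common interval. Its 12-letter end TCTAGGGTTAGG was chosen after the stretches had been seen. It occurred at 32 places, 4 of them under the peaks of the 3 ELM2 genes. Of the other 28 places, 8 (28.6%) lay in a common interval, which together covered 3.39% of the chromosomes. The lower fold of the replicates was 10.4 to 15.3 in the 3 ELM2 genes, whereas these 8 had a median of 2.50 and a highest value of 4.56, and all common intervals a median of 1.96. Of the 484 other places with the 10-letter end TAGGGTTAGG, 17.4% lay in a common interval. CAGATCTG was in 1.69% of the shared-summit windows, against 0.349% of windows 1000 bp to either side. AGGGCTTT was in 2.07% against 0.934%, ATTTGGGG in 4.16% against 1.40%, CTTGATTT in 4.82% against 3.95% and TTAATCGA in 2.54% against 0.928%. Most places with TCTAGGGTTAGG or TAGGGTTAGG were thus without a common interval, and where there was one outside the ELM2 genes its lower fold was at most 5.83.

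Sequence words known from Polycomb recruitment in plants were looked up as well, on both strands. No complete Telobox AAACCCTA or GA repeat GAGAGAGA lay within 100 bp of a summit of the 5 genes in either replicate. Of the shared summits of replicate 1, 15.5% and 6.65% had them within that distance. A Telobox of AT1G13880 began less than 100 bp after the replicate 1 summit but ended beyond 100 bp. Within 200 bp the Telobox was present in AT1G13880 (2 sites), AT1G26580 (1 site) and AT2G46040 (1 site), and in 29.4% of the shared summits of replicate 1. A Telobox of AT1G13880 and that of AT1G26580 overlapped TCTAGGGTTAGG, since the Telobox reads TAGGGTTT on the other strand. Without its last letter, TAGGGTTT is also part of TAGGGTTAGG. This word began 90 bp after the replicate 1 summit in AT1G13880 and 88 bp after it in AT2G03470. Within the 50 bp before the summit, the intron stretches above also hold TAGGGTT in AT1G13880 and its reverse, AACCCTA, in AT2G03470. Only the complete Telobox was therefore absent within 100 bp, and TAGGGTT was not counted at the other shared summits. The GA repeat was in none of the 5 windows and in 15.6% of the shared ones.

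The likeness of these genes went beyond the summit. The proteins of AT1G13880 and AT2G03470 had 61.5% identical residues over aligned positions, AT2G03470 and AT1G26580 43.2%, and AT1G13880 and AT1G26580 43.1%. Among 27443 other proteins, each of the 3 aligned best with the other 2. All 3 genes have a last coding intron in phase 1, which splits a codon after its first base. It is preceded by 148 coding bases in both AT2G03470 transcripts, by 145 in 2 of the AT1G13880 transcripts and 175 in the longest, and by 145 in 2 of the AT1G26580 transcripts, the third of which has a single coding exon. In the alignments of the longest proteins this intron did not stand in the same column in any pair. It was in columns 50 and 49 for AT2G03470 and AT1G26580, 59 and 62 for AT1G13880 and AT2G03470, and 68 and 58 for AT1G13880 and AT1G26580.

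AT1G13880 and AT2G03470 also shared neighbours. QUL1 (QUASIMODO2 LIKE 1) and PAP2, a purple acid phosphatase, flank AT1G13880, and QUL2 and PAP9 flank AT2G03470 in the same relative order. QUL1 and PAP2 are not the nearest neighbours of AT1G13880. DRL1, which the AT1G13880 peak reaches into, and the gene SNAP30 lie between. QUL1 and QUL2 were 85.5% identical over aligned residues and PAP2 and PAP9 74.4%, against 20.0% to 24.6% for the other pairs of flanking proteins. The neighbours of AT1G26580 included no such counterpart, with 19.3% to 25.7% for all pairs. QUL2 lies 2961 bp from AT2G03470, outside the 2 kb, and was added after its values had been seen. QUL1 had a fold of 1.96 in replicate 1 and 1.48 in replicate 2, and QUL2 2.18 and 1.90. PAP2 had 2.67 and 2.19, and PAP9 2.85 and 1.99. The peaks of both ELM2 genes were above those of these gene pairs in each replicate, which the choice of the ELM2 genes by fold had fixed beforehand. Within each replicate the chromosome 2 copy had the higher fold for the QUL and ELM2 pairs, and for the PAP pair PAP9 was higher in replicate 1 and PAP2 in replicate 2.

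**Figure D4:**
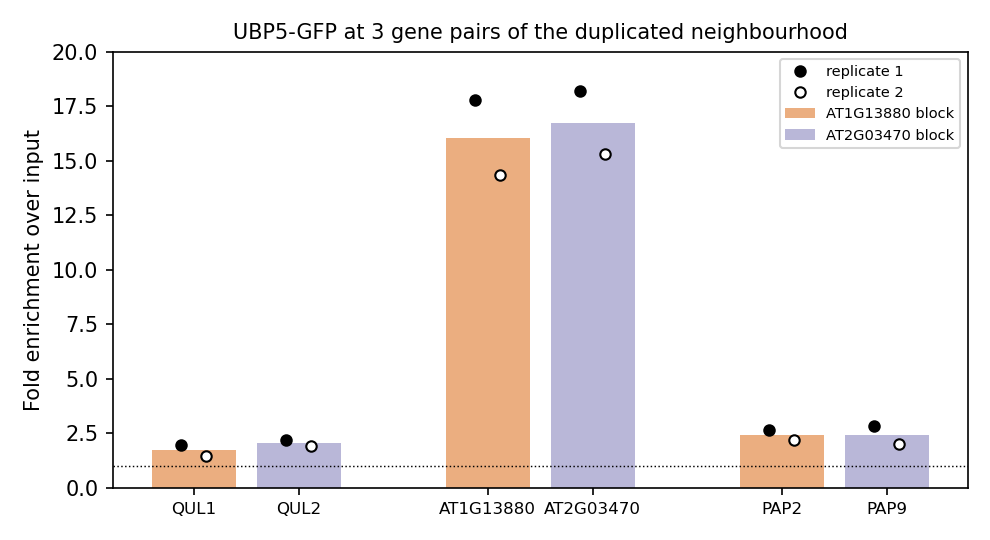
Fold enrichment over input (y axis, linear, from 0) at AT1G13880 and AT2G03470 and at the 2 pairs of paralogous neighbours. Bars are means of the replicates, filled circles replicate 1, open circles replicate 2, and the dotted line marks a fold of 1. The ELM2 pair lies at 14.3 to 18.2 and the neighbouring pairs at 1.48 to 2.85.

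The remaining neighbours within 2 kb of these 3 genes had no peak of their own in either replicate. They were SNAP30 (an adaptor protein of vesicle fusion) beside AT1G13880, the kelch repeat gene AT2G03460 and the non-coding AT2G04525 beside AT2G03470, and UGD1 (UDP-glucose dehydrogenase 1) and the zinc finger gene AT1G26590 beside AT1G26580. UGD1 ends only 173 bp upstream of AT1G26580, whose peak began within AT1G26580. Exact runs of letters that the common intervals of any 2 of the 3 ELM2 genes shared were at most 16 to 17 bases long, and the study kept uniquely mapped reads only.

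AT2G46040 and AT4G11400, which carry the ARID domain as well, differed from these genes in peak height and width, and AT2G46040 also in place. AT2G46040 lies on the minus strand at chr2:18935236-18938447. Its fold was 2.71 in replicate 1 and 2.05 in replicate 2 (2.38 ± 0.471, SD, n = 2), with 65.7% and 53.2% of the shared peaks lower, and the peak was 514 and 565 bp wide. The summits at 18937806 and 18937826 lay 641 and 621 bp from the TSS, beyond the upper quartile of all genes with a common interval. They were at the start of translation, 1 bp past the first base of the start codon of 2 transcripts in replicate 1 and 19 bp before it in replicate 2, and 43 and 23 bp past the first base of the upstream start codon of the third transcript. The 30 bases around the replicate 1 summit show this, with the start codon in capitals.
AT2G46040 leader and first codons, chr2:18937791-18937820, minus strand: tagttcgttgttaATGgcgggttggtcgat

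AT4G11400 lies on the plus strand at chr4:6938299-6940648. Its fold was 1.87 in each replicate, with 10.7% of the shared peaks lower in replicate 1 and 38.8% in replicate 2, and it was thus the weakest of the 5. The peak covered 336 bp, chr4:6938488-6938823, in replicate 1 and 488 bp, chr4:6938439-6938926, in replicate 2. The summits at 6938593 and 6938667 were 74 bp apart, the largest gap between replicates among the 5 genes. They lay 294 and 368 bp downstream of the TSS, within the quartiles of all genes with a common interval. The summits of AT1G13880, AT2G03470 and AT1G26580 lay 392 to 471 bp from the TSS. The summit of replicate 1 fell in a leader intron of 130 bp in 1 transcript and upstream of the other transcript, and that of replicate 2 fell in the leader exon of both, 124 and 50 bp before the start codon.

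AT2G46040 and AT4G11400 were each other's best match by alignment score among all proteins. They had 33.3% identical residues over aligned positions and 27.2% over all alignment columns, gaps included. Both genes have a last coding intron in phase 0. The next best match of both was GYRB3 (AT5G04110), with 28.3% and 27.2% over aligned positions, and a fold of 2.27 in replicate 1 and 1.95 in replicate 2. Their proteins had 23.0% to 33.6% identical aligned residues with those of the 3 strongly occupied genes, and 11.9% to 17.4% over all columns. For comparison, AT1G13880 had 27.6% of aligned residues, and 19.7% over all columns, with AT1G68410, a protein phosphatase 2C without an annotated ELM2 domain. Their summit windows contained none of the 6 shared words, and scored 20 to 31 in alignments with the windows of the 3 genes. UBC6, a ubiquitin-conjugating enzyme gene 1097 bp downstream of AT2G46040, had a fold of 2.42 and 1.82 at a separate peak. AT2G46050, upstream of AT2G46040, and AT4G11402, downstream of AT4G11400, had none.

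Other genes of the ARID family and of the deacetylase complexes that ELM2 proteins join in animals were looked up as well. Their peaks had to lie below those of AT2G03470, AT1G13880 and AT1G26580, which rank highest of all, so they are set beside all genes instead. Of 8 further ARID genes, 2 had a common interval in the body: AT2G17410 with a fold of 2.96 and 2.72, above the upper quartile of 2.42 for all genes with a common interval in replicate 2 only, and AT3G43240 with 1.91 and 1.70. AT1G76510 had a peak in replicate 1 only, at a fold of 2.07, and AT3G13350 in replicate 2 only, at 1.51, and the other 4 had no peak. Of 6 genes of class I deacetylases and partner proteins, 2 had a common interval. These were HDA6 with a fold of 2.00 and 1.69, and HDC1 (AT5G08450, Histone Deacetylation Complex 1) with 3.69 and 2.65, which was above the upper quartile of 3.02 and 2.42 for all genes with a common interval. HDA19 had a peak in replicate 1 only, at 1.78, and HDA7, HDA9 and AT3G52250 had none. As a share, 2 of 8 and 2 of 6 stood beside 29.0% of all protein-coding genes.

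The genes nearest to each ELM2 gene in the folds of the 2 replicates were found by the sum of the absolute log2 differences. For AT1G13880 it was DRL1, through the same peak (difference 0), and this peak was also nearest to AT2G03470 (difference 0.13). For AT1G26580 it was SKP1 (also ASK1, a subunit of SCF ubiquitin ligases), at a difference of 0.43, with a fold of 10.9 in replicate 1 and 8.58 in replicate 2. No other peak ranked between those of AT1G26580 and AT1G13880. For AT2G46040 it was PSD (PAUSED), with the same values in both replicates, and for AT4G11400 it was PHO2, a ubiquitin-conjugating enzyme of phosphate homeostasis, at a difference of 0.03 with a fold of 1.85 and 1.88. With 2 values per gene such likeness describes peak height alone.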

How the data were processed

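UBP5-GFP occupancy was taken from the peak lists of 2 immunoprecipitated replicates, each called against the single input. According to the study's methods, the authors filtered reads with SOAPnuke, mapped them to TAIR10 with Bowtie2 2.4.5, kept uniquely mapped pairs and called peaks per replicate with MACS3 3.0.0 at q of 0.01. Picard is named in the submitters' processing notes, and whether duplicates were removed is not given in the sources used here. The deposited values are the fold ratio at the summit, the −log10 p-value and the −log10 q-value. The deposited integer score was not used.

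Pileup and background level were solved from fold and p with a Poisson model that was tested on simulated data. Peaks were placed on the RefSeq annotation of TAIR10.1, in which no peak passed a chromosome end. A common interval was an overlap of at least 1 bp between replicates. Proteins, translated from annotated coding sequences, were aligned globally with BLOSUM62, and 401-bp summit windows locally (match 2, mismatch -3), in Biopython 1.88. Genes and lists were chosen with earlier results of these data known. Named genes were the 5 ELM2 genes, genes within 2 kb, the ARID and deacetylase lists, and for each ELM2 gene the nearest in fold and the most alike in protein. No test was run, since fold chose the genes. Alternatives were the window, q, fold and overlap limits, the added 1, the TSS and each replicate left out. The study calls the replicates biological and independent, and SDs are between these 2. Replicate 2 was sequenced far more deeply than replicate 1 by the study's own account.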

Additional observations from a re-analysis of the deposited data

How the results depend on the processing

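With 2 replicates, leaving out either gives the value of the other, which is printed throughout, and is no check of stability. At a q-value of at most 1e-20, 3 of the 5 genes and 20.6% of protein-coding genes had a common interval, and at a fold of at least 3 it was 3 and 6.57%; AT2G46040 and AT4G11400 were lost at both limits, as these limits are stricter by construction. Within the gene body alone it was all 5 genes and 29.0%. Measured from the TSS of the transcript with the longest coding sequence, the mean summit distance was 422.5 bp in AT1G13880 and 426 bp in AT1G26580. Without the added 1, or over the genome background level, the mean fold of AT4G11400 was 1.88. The 6 shared words were also found around the summits of replicate 2, where 7 words were shared, an alternative chosen after seeing the data. These summits lay 13, 2 and 6 bp from those of replicate 1 in AT1G13880, AT2G03470 and AT1G26580. The windows of the replicates therefore nearly coincided, and this was no independent check. No paired analysis was possible because the replicates belong to 1 group and share 1 input. Precision is limited by 2 replicates and a single shared input.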
